A study of Mus musculus with 24 samples.

Results

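The genes described are 10 heat shock proteins of mouse, chosen by symbol as the cytosolic and mitochondrial chaperones Hspa1a, Hspa1b, Hspa8, Hsp90aa1, Hsp90ab1, Hsph1, Dnajb1, Hspd1, Hspe1 and Hspb1. They are 10 of the 45706 gene IDs in the count table, each symbol matched 1 ID, and all 10 passed the filter on low counts that left 16573 genes for testing. Their RNA was measured by sequencing in 24 libraries of mouse embryonic fibroblasts, connective tissue cells cultured from E13.5 embryos, in 8 groups of 3 libraries. The groups are Cre libraries, given in the labels as knockout, and GFP libraries, given as control, in each of 4 genotypes named Vhl, Rassf1a, Vhl/Rassf1a (both genes altered) and WT (wild type). All groups share the cell type and embryonic day, and the cells of all 4 genotypes have both a Cre and a GFP group. The delivery of Cre or GFP, the altered exons and the number of embryos or cultures are not given, so p-values may measure only technical spread. The series concerns loss of the tumour suppressor genes Vhl and Rassf1a, and its design note names kidney tubule epithelium where the sample labels name fibroblasts.

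Heat shock proteins are molecular chaperones, which bind unfolded or partly folded proteins and help them reach or regain their shape. HSP70 proteins bind short exposed stretches in a cycle driven by ATP, J proteins deliver clients to them, HSP110 proteins exchange their nucleotide, and HSP90 proteins finish the folding of kinases, steroid receptors and other signalling proteins. HSP60 and its lid HSP10 form the folding chamber of mitochondria, and small heat shock proteins hold unfolding proteins without ATP. The transcription factor HSF1 raises many of these genes under heat or other protein damage by binding heat shock elements, repeats of the letters GAA in alternating direction.

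The windows around the gene starts are shown because the members share a known regulator and moved in different directions in the comparisons below. Windows of 250 bases before to 50 after the start, from the RefSeq annotation of GRCm38.p6, were available for 7 of the 10 members, and Hspa8, Hsp90aa1 and Hsp90ab1 had none. Capitals mark matches on either strand to a heat shock element of 2 units, GAANNTTC or TTCNNGAA, and overlapping matches run together. The windows lie at chr17:34972107-34972406 on the minus strand for Hspa1a, chr5:149636287-149636586 on the minus strand for Hsph1, chr1:55087898-55088197 on the plus strand for Hspe1, chr5:135887669-135887968 on the plus strand for Hspb1 and chr8:83607925-83608224 on the plus strand for Dnajb1.
Hspa1a: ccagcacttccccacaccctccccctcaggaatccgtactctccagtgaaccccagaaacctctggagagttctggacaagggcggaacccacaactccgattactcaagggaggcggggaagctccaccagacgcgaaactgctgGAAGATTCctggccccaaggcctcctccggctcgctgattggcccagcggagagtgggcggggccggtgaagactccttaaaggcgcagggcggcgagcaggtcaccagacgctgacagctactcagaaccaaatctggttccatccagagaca
Hsph1: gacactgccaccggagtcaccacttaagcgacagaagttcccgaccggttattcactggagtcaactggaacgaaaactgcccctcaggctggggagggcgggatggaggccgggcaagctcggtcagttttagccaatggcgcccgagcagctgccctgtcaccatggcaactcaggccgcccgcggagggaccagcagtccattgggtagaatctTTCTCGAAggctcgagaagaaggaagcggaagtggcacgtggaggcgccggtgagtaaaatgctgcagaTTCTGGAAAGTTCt
Hspe1: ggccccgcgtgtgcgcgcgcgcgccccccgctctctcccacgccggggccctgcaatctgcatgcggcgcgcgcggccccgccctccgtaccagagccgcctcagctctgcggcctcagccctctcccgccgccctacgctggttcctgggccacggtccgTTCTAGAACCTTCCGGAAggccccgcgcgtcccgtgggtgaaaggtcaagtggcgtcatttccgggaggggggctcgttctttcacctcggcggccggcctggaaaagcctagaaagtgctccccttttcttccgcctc
Hspb1: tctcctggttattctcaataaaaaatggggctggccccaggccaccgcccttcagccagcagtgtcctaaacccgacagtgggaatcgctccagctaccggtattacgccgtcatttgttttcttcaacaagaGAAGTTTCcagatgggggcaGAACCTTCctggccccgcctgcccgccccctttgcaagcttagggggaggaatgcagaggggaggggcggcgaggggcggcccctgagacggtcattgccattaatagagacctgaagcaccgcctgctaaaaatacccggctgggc
Dnajb1: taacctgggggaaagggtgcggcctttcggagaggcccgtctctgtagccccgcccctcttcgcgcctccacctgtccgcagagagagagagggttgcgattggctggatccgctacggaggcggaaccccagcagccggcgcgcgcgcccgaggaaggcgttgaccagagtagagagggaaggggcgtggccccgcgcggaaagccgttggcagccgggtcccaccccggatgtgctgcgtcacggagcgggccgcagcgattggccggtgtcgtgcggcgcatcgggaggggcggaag
A match was found in the first listed window of 5 of these 7 members, against 15.1% of 32851 mouse windows of 300 bases. A longer element of 3 units, GAANNTTCNNGAA or TTCNNGAANNTTC, which contains the shorter one, was present in the Hsph1 and Hspe1 windows, against 0.603% of all windows. The match of Hspa1a began 104 bases before the start, those of Hspe1 began 89, 84 and 79 bases before it, and those of Hspb1 began 117 and 97 bases before it. In Hsph1 1 match began 33 bases before the start and the other 2, which overlap in the longer element, began 36 and 41 bases after it. The Hspa1b window (chr17:34959189-34959488, minus strand) differs from that of Hspa1a at 4 of 300 bases and holds the same match. Neither of the 2 Dnajb1 windows nor the first Hspd1 window held these letters, while the second Hspd1 window (chr1:55087883-55088182, minus strand) overlaps the Hspe1 window and holds the same element on the other strand. The core of the hypoxia response element, ACGTG or GCGTG on either strand, was in the first windows of 4 of the 7 members (Hsph1, Dnajb1, Hspd1 and Hspe1), against 43.8% of all windows. Such matches describe letters and do not show binding.

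Library totals ran from 29934173 to 55849586 counts, so each member except Hspa1a had at least 353 counts in every library, and Hspa1a had 49 to 165. Vhl RNA was 2.57 ± 0.257 CPM in Vhl Cre against 26.7 ± 0.972 CPM in Vhl GFP libraries, and 2.10 ± 0.523 CPM in Vhl/Rassf1a Cre against 22.0 ± 1.59 CPM in Vhl/Rassf1a GFP libraries (SD, n = 3 each; CPM scales the counts to a common library size, with TMM factors). Rassf1 counts join all forms of that gene, at 26.6 ± 1.25 CPM in Rassf1a Cre and 27.9 ± 2.90 CPM in Rassf1a GFP libraries, so they do not check the loss of Rassf1a. They were 45.2 ± 2.11 CPM in Vhl/Rassf1a Cre and 32.6 ± 3.95 CPM in Vhl/Rassf1a GFP libraries, and 43.7 ± 1.0 CPM in Vhl Cre and 26.6 ± 2.49 CPM in Vhl GFP libraries. All 12 fibroblast markers were expressed, with a summed level of 39868 to 60524 CPM, against 11.9 to 37.4 CPM for 10 markers of kidney proximal tubule, of which 5 stayed under 1 CPM in every library. Replicate 1 of Rassf1a GFP and replicate 2 of Vhl/Rassf1a GFP stood apart from their groups. Values without them are given for part of the member results, wider lists, ratios and correlations. In bulk RNA, fewer cells of a type and less RNA per cell cannot be told apart.

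Per length of the joined annotated exons of each gene, the constitutive cytosolic chaperones were the most abundant members and the stress-inducible HSP70 pair the least. This length joins the exons of all annotated transcripts of a gene and is not that of 1 transcript. Hsp90ab1 averaged 836 CPM per kb over the 24 libraries, rank 25 of 16507 genes ranked. Hspa8 averaged 439 CPM per kb (rank 63) and Hsp90aa1 224 CPM per kb (rank 149). Hspd1 had 166 CPM per kb, Hspb1 133, Hspe1 69.9, Hsph1 27.2 and Dnajb1 21.6. Hspa1b had 6.51 CPM per kb (rank 5952) and Hspa1a 0.870 CPM per kb (rank 11681). Values and ranks of this pair are uncertain, since 62.3 and 60.4% of their 50-base stretches occur in other genes. The 10 genes together held 0.511 to 0.688% of the counts as group means, and 67.7 to 72.4% of that share came from Hsp90ab1 and Hspa8. Their summed level was 5135 ± 110.0 CPM in Vhl Cre and 5113 ± 134 CPM in Vhl GFP libraries, 6065 ± 80.7 CPM in Vhl/Rassf1a Cre and 6704 ± 92.8 CPM in Vhl/Rassf1a GFP libraries, and 6595 ± 216 CPM in WT Cre and 6883 ± 129 CPM in WT GFP libraries.

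**Figure D1:**
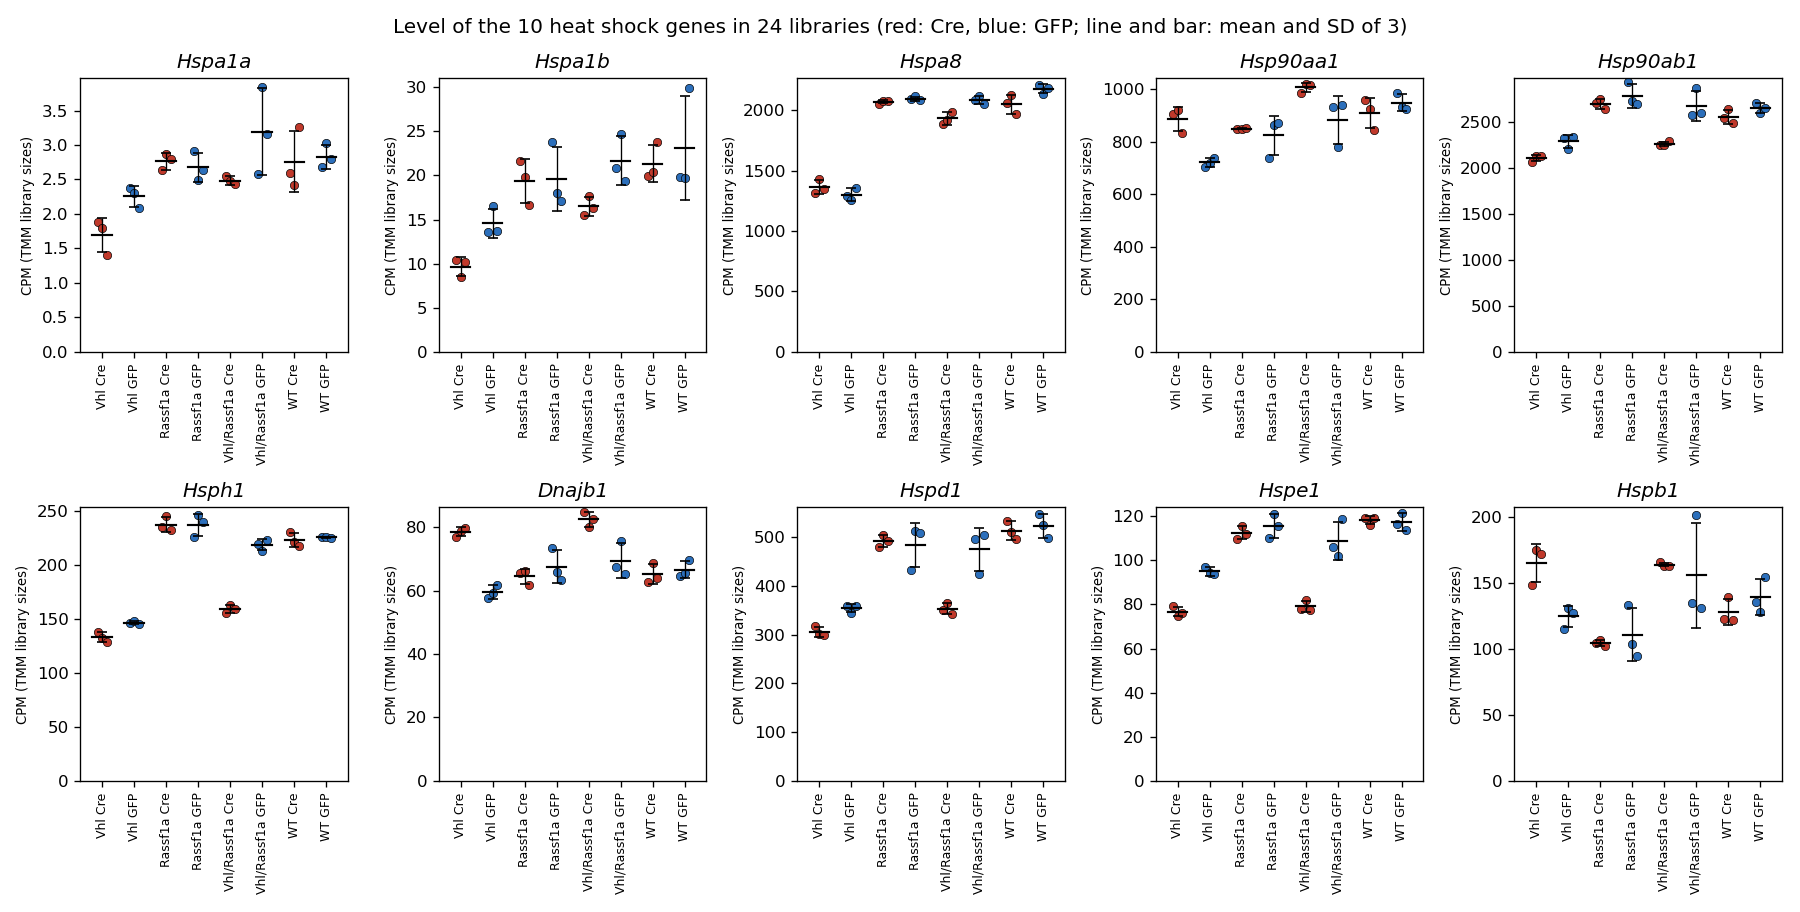
Level in CPM (linear axis starting at 0) of each of the 10 members in the 24 libraries; red points are Cre and blue points GFP libraries, and lines and bars give the mean and SD of 3 libraries. Cre and GFP points separate in the Vhl and Vhl/Rassf1a cells for most members and overlap in the Rassf1a and WT cells for all members but Hspa8, and the Vhl GFP libraries lie under the WT GFP libraries for 9 of the 10 members.

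Across the 8 groups all 10 members differed in 1 joint edgeR quasi-likelihood test at an adjusted p (Benjamini-Hochberg over all genes tested) under 0.05, against 63.1% of all genes. The highest group mean was 2.40 times the lowest for Hspa1b, 1.88 times for Hspa1a, 1.78 times for Hsph1, 1.72 times for Hspd1 and 1.67 times for Hspa8. The range was narrower for Hspb1 (1.58 times), Hspe1 (1.54), Hsp90aa1 (1.40), Dnajb1 (1.39) and Hsp90ab1 (1.32). Vhl Cre was the lowest group for Hspa1a, Hspa1b, Hsp90ab1, Hsph1, Hspd1 and Hspe1, Vhl GFP for Hspa8, Hsp90aa1 and Dnajb1, and Rassf1a Cre for Hspb1. Most neighbours in the order of the group means overlapped in their libraries, with 0 to 3 of the 7 steps per gene free of overlap. The mean coefficient of variation within groups was 2.44% for Hsph1 and 2.46% for Hspa8, against 9.83% for Hspa1a and 9.97% for Hspb1, and it was highest for Hspa1b.

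Members passed the test for a Cre effect in both genotypes with altered Vhl, and none passed it in Rassf1a or WT cells. In Vhl cells 9 of the 10 members passed the edgeR test, with 3 higher (Hsp90aa1, Dnajb1 and Hspb1) and 6 lower (Hspa1a, Hspa1b, Hsp90ab1, Hsph1, Hspd1 and Hspe1), while 36.1% of all genes passed, 17.4% as higher and 18.7% as lower. In Vhl/Rassf1a cells 9 of the 10 passed, with 2 higher (Hsp90aa1 and Dnajb1) and 7 lower (the same 6 and Hspa8), while 29.7% of all genes passed, 14.9% as higher and 14.8% as lower. In Rassf1a cells 0 of 10 passed (0.392% of all genes, 0.187% as higher and 0.205% as lower), with log2 fold changes of -0.08 to 0.05, 0 at an unadjusted p under 0.05 and 0 by DESeq2. In WT cells 0 of 10 passed (1.26% of all genes, 0.833% as higher and 0.428% as lower), with log2 fold changes of -0.12 to 0.01, 1 at an unadjusted p under 0.05 (Hspa8, lower in Cre) and 0 by DESeq2. The Cre and GFP libraries did not overlap for 9 members in Vhl cells (52.7% of all genes) and 9 in Vhl/Rassf1a cells (39.1%), and for 1 member, Hspa8, in each of Rassf1a cells (10.7%) and WT cells (15.0%). The median log2 fold change of the 10 members was -0.13 in Vhl cells and -0.31 in Vhl/Rassf1a cells, beside -0.01 and 0.00 over all genes tested. By DESeq2 8 members were called in Vhl cells and 8 in Vhl/Rassf1a cells. The calls kept under every processing alternative tried were Hspa1b, Hsp90aa1, Dnajb1, Hspd1 and Hspe1 in Vhl cells, and Hsp90ab1, Hsph1, Dnajb1, Hspd1 and Hspe1 in Vhl/Rassf1a cells. The count of 9 fell to 5 in Vhl cells without Vhl Cre replicate 3, and to 5 in Vhl/Rassf1a cells without Vhl/Rassf1a Cre replicate 1 or without Vhl/Rassf1a Cre replicate 2.

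**Figure D2:**
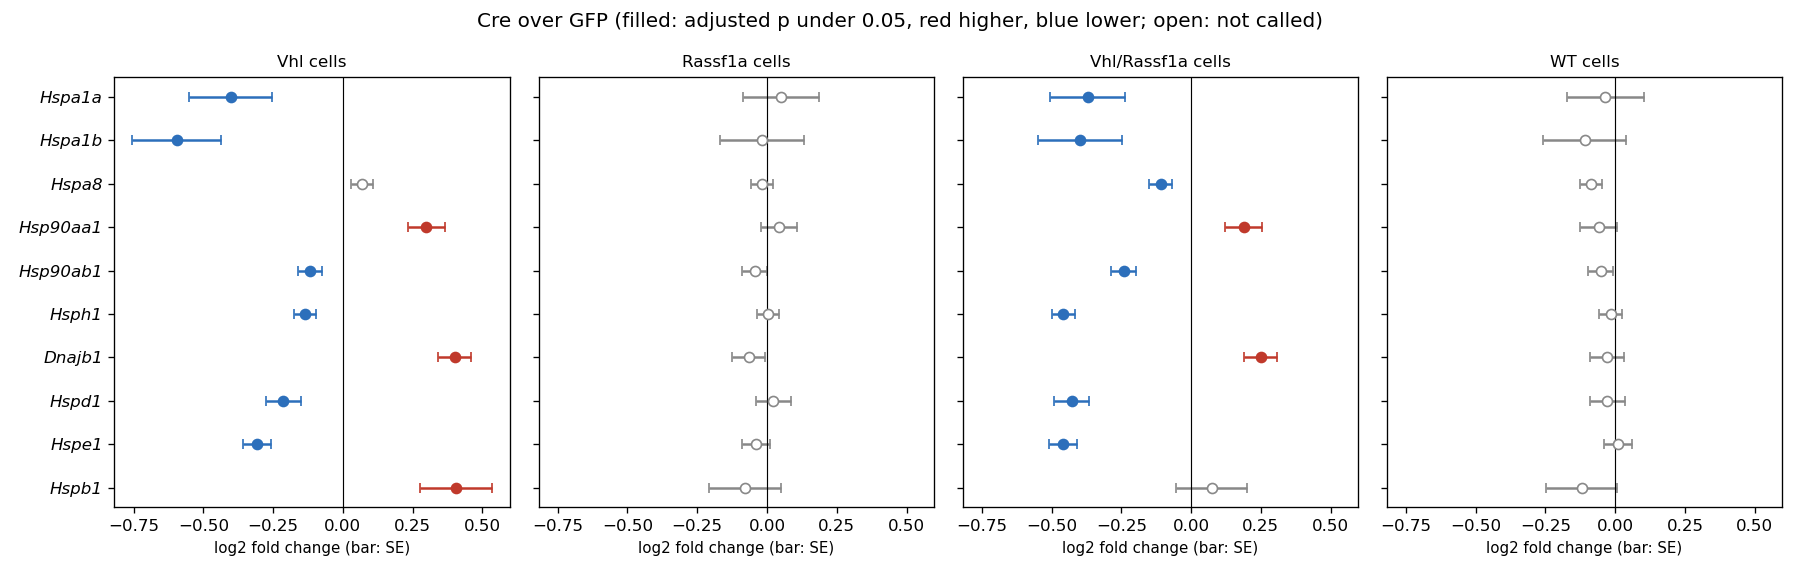
Log2 fold change of Cre over GFP with its standard error (bars) for each member in the 4 genotypes; filled points passed the edgeR test at an adjusted p under 0.05, in red where higher and blue where lower in Cre. Points depart from 0 in both directions in the Vhl and Vhl/Rassf1a cells and lie between -0.12 and 0.05 in the Rassf1a and WT cells.

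Markers of other cell types moved in the same comparisons. The summed level of 8 skeletal muscle markers was 383 to 461 CPM in Vhl Cre against 136 to 153 CPM in Vhl GFP libraries, and 467 to 490.5 CPM in Vhl/Rassf1a Cre against 195 to 245 CPM in Vhl/Rassf1a GFP libraries. Of these 8 genes 4 were tested, 3 of them higher in Cre in both genotypes, and 5 stayed under 1 CPM in every library. The summed level of 7 epithelial markers was 127 to 147 CPM in Vhl Cre against 38.4 to 39.4 CPM in Vhl GFP libraries, and 194 to 202 CPM in Vhl/Rassf1a Cre against 75.6 to 97.6 CPM in Vhl/Rassf1a GFP libraries, with 3 of the 7 under 1 CPM in every library. Markers of kidney proximal tubule summed to 36.2 to 37.4 CPM in Vhl Cre against 17.2 to 20.6 CPM in Vhl GFP libraries, and to 27.1 to 28.6 CPM in Vhl/Rassf1a Cre against 18.1 to 20.4 CPM in Vhl/Rassf1a GFP libraries. Of 5 of them tested, 2 were higher and 1 lower in Vhl Cre, and 2 higher in Vhl/Rassf1a Cre libraries. Endothelial markers summed to 11.9 to 13.1 CPM in Vhl Cre against 5.55 to 6.75 CPM in Vhl GFP libraries, and to 12.9 to 14.5 CPM in Vhl/Rassf1a Cre against 11.6 to 12.4 CPM in Vhl/Rassf1a GFP libraries, with 3 and 2 of 5 tested higher and 3 of 6 under 1 CPM in every library. Macrophage markers summed to 4.97 to 5.32 CPM in Vhl Cre against 4.58 to 5.34 CPM in Vhl GFP libraries. They summed to 5.95 to 7.01 CPM in Vhl/Rassf1a Cre against 3.97 to 5.18 CPM in Vhl/Rassf1a GFP libraries. Of these markers 1 of 3 tested was higher in Cre in each genotype, and 4 of 6 were under 1 CPM in every library. Neural markers summed to 482 to 504 CPM in Vhl Cre against 481 to 491 CPM in Vhl GFP libraries, and to 493 to 524 CPM in Vhl/Rassf1a Cre against 429.9 to 475 CPM in Vhl/Rassf1a GFP libraries. Of 4 neural markers tested, 1 was higher and 2 lower in Vhl Cre, and 2 higher and 2 lower in Vhl/Rassf1a Cre libraries. Fibroblast markers summed to 47836 to 51328 CPM in Vhl Cre against 58119.7 to 60524 CPM in Vhl GFP libraries. In Vhl/Rassf1a cells their sums overlapped, at 40908 to 44672 CPM in Cre and 39868 to 49076 CPM in GFP libraries. In WT cells 2 of the 12 were higher in Cre and 0 lower, beside 0.833% of all genes higher and 0.428% lower. No muscle or epithelial marker was at 0 in every library. In Rassf1a cells the muscle sum was 138 to 147 CPM in Cre and 142 to 173 CPM in GFP libraries and the epithelial sum 45.9 to 54.8 CPM in Cre and 44.7 to 64.5 CPM in GFP libraries. In WT cells the muscle sum was 199 to 243 CPM in Cre and 217 to 272 CPM in GFP libraries and the epithelial sum 69.2 to 82.9 CPM in Cre and 76.8 to 94.8 CPM in GFP libraries. Of 6 epithelial markers tested, 5 were higher in Vhl Cre and 3 in Vhl/Rassf1a Cre libraries, and of the 12 fibroblast markers 6 were lower and 1 higher in Vhl Cre, and 1 lower and 2 higher in Vhl/Rassf1a Cre libraries. Of all genes, 17.4% were higher and 18.7% lower in Vhl Cre, and 14.9% higher and 14.8% lower in Vhl/Rassf1a Cre libraries. The part of these cell type markers in the changes of the members, and in the differences between the GFP lines, was not tested.

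Hspa8 encodes the constitutive HSP70 protein of the cytosol, HSC70, and lies at chr9:40800984-40810087 on GRCm38. It had 1318, 1434 and 1345 CPM in Vhl Cre and 1293, 1253 and 1359 CPM in Vhl GFP libraries. It had 1891, 1920.1 and 1989 CPM in Vhl/Rassf1a Cre and 2087, 2117 and 2054 CPM in Vhl/Rassf1a GFP libraries. All 6 libraries of Vhl cells lay under all 18 others, overlapped between Cre and GFP, and gave a log2 fold change of 0.07 ± 0.04 (SE, edgeR adjusted p = 0.195). In Vhl/Rassf1a cells each Cre library lay under each GFP library and the log2 fold change was -0.11 ± 0.04 (adjusted p = 0.0423). That call was lost without any 1 of Vhl/Rassf1a GFP replicates 1, 2 and 3 and Vhl/Rassf1a Cre replicates 1 and 2, at adjusted p of 0.0505 to 0.105. The gene holds 3 small nucleolar RNA genes on its strand. Of the 50-base stretches of the Hspa8 transcripts, 38.6% occur in other genes, mainly processed pseudogenes, whose counts were at most 0.268% of those of Hspa8.

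Hspa1a and Hspa1b encode the stress-inducible HSP70 proteins and lie near each other at chr17:34969190-34972156 and chr17:34956436-34959238. They share 60.4 and 62.3% of their 50-base stretches with other genes, chiefly with each other, so their counts are uncertain as separate values, and Hspa1a overlaps Gm20481 on the other strand. Hspa1b had 10.4, 8.44 and 10.2 CPM in Vhl Cre and 13.6, 16.5 and 13.7 CPM in Vhl GFP libraries, a log2 fold change of -0.60 ± 0.16 (edgeR adjusted p = 0.00483). It had 15.6, 17.7 and 16.3 CPM in Vhl/Rassf1a Cre and 20.9, 24.7 and 19.4 CPM in Vhl/Rassf1a GFP libraries, a log2 fold change of -0.40 ± 0.15 (adjusted p = 0.0499). Groups did not overlap in either genotype, and the 3 Vhl Cre libraries were the lowest of all 24. Hspa1a had 1.88, 1.80 and 1.41 CPM in Vhl Cre and 2.38, 2.30 and 2.09 CPM in Vhl GFP libraries (log2 -0.40 ± 0.15, adjusted p = 0.0389). It had 2.55, 2.47 and 2.43 CPM in Vhl/Rassf1a Cre and 2.57, 3.84 and 3.16 CPM in Vhl/Rassf1a GFP libraries (log2 -0.37 ± 0.14, adjusted p = 0.0416), so that the nearest Cre and GFP values almost met. Summed as 1 feature, the pair had a log2 fold change of -0.56 in Vhl cells (adjusted p = 0.00396) and -0.40 in Vhl/Rassf1a cells (adjusted p = 0.0311). In both genotypes the Hspa1a call was lost with the DESeq2 test, with no filter and with only the groups compared. The Hspa1b call in Vhl/Rassf1a cells was lost with the DESeq2 size factors and with the replicate block. The Hspa1a call in Vhl cells was lost without any 1 of Vhl GFP replicates 1 and 2 and Vhl Cre replicates 2 and 3 (adjusted p 0.0609 to 0.190). In Vhl/Rassf1a cells the Hspa1a call was lost without any 1 of Vhl/Rassf1a GFP replicates 2 and 3 and the 3 Cre libraries (0.0667 to 0.299), and the Hspa1b call without any 1 of Vhl/Rassf1a GFP replicates 1 and 2 and the 3 Cre libraries (0.0614 to 0.187). In WT GFP libraries Hspa1b had 19.8, 19.7 and 29.9 CPM, the last the highest of all 24.

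Hsp90aa1, the stress-inducible cytosolic HSP90 gene, and Hsp90ab1, its constitutive partner, moved in opposite directions. Hsp90aa1 (chr12:110690605-110702728) had 907, 920.0 and 836 CPM in Vhl Cre and 706, 719 and 739.6 CPM in Vhl GFP libraries. Every Cre library was higher than every GFP library and the log2 fold change was 0.30 ± 0.07 (edgeR adjusted p = 0.000977). It had 986, 1021 and 1016 CPM in Vhl/Rassf1a Cre and 934, 780.0 and 939 CPM in Vhl/Rassf1a GFP libraries, a log2 fold change of 0.19 ± 0.07 (adjusted p = 0.0347). The low value is that of Vhl/Rassf1a GFP replicate 2, without which the log2 fold change was 0.11 (adjusted p = 0.215). Without any 1 of the 3 Vhl/Rassf1a Cre libraries the call was also lost, with adjusted p from 0.0621 upward.

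Hsp90ab1 (chr17:45567775-45573271) had 2071, 2135 and 2129 CPM in Vhl Cre and 2325, 2209.6 and 2344 CPM in Vhl GFP libraries, a log2 fold change of -0.12 ± 0.04 (edgeR adjusted p = 0.0371). It had 2251, 2258 and 2293 CPM in Vhl/Rassf1a Cre and 2576, 2869.6 and 2597 CPM in Vhl/Rassf1a GFP libraries, a log2 fold change of -0.24 ± 0.04 (adjusted p = 0.000169). The groups did not overlap in either genotype. The call in Vhl cells was lost without any 1 of Vhl GFP replicates 1 and 3 and Vhl Cre replicates 1, 2 and 3 (adjusted p 0.0872 to 0.162). The ratio of Hsp90aa1 to Hsp90ab1, per length, was 0.321 ± 0.0187 in Vhl Cre and 0.240 ± 0.00833 in Vhl GFP libraries (SD, n = 3 each). It was 0.339 ± 0.00531 in Vhl/Rassf1a Cre and 0.253 ± 0.0398 in Vhl/Rassf1a GFP libraries, where replicate 2 had 0.207 and each of the other 2 had 0.276, still under every Vhl/Rassf1a Cre library. Cre and GFP ratios did not overlap in these 2 genotypes, with an exact two-sided permutation p of 0.1 in each, the smallest that 3 against 3 libraries allow. In Rassf1a cells the ratio was 0.240 ± 0.00507 in Cre and 0.227 ± 0.0298 in GFP libraries (exact p = 0.9), where replicate 1 had 0.192 and the others 0.242 and 0.246, and in WT cells 0.272 ± 0.0146 in Cre and 0.273 ± 0.00638 in GFP libraries (exact p = 1.0). The summed HSP90 level was 2999 ± 48.9 CPM in Vhl Cre and 3015 ± 78.9 CPM in Vhl GFP libraries, and 3275 ± 36 CPM in Vhl/Rassf1a Cre and 3565 ± 74.2 CPM in Vhl/Rassf1a GFP libraries.

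**Figure D3:**
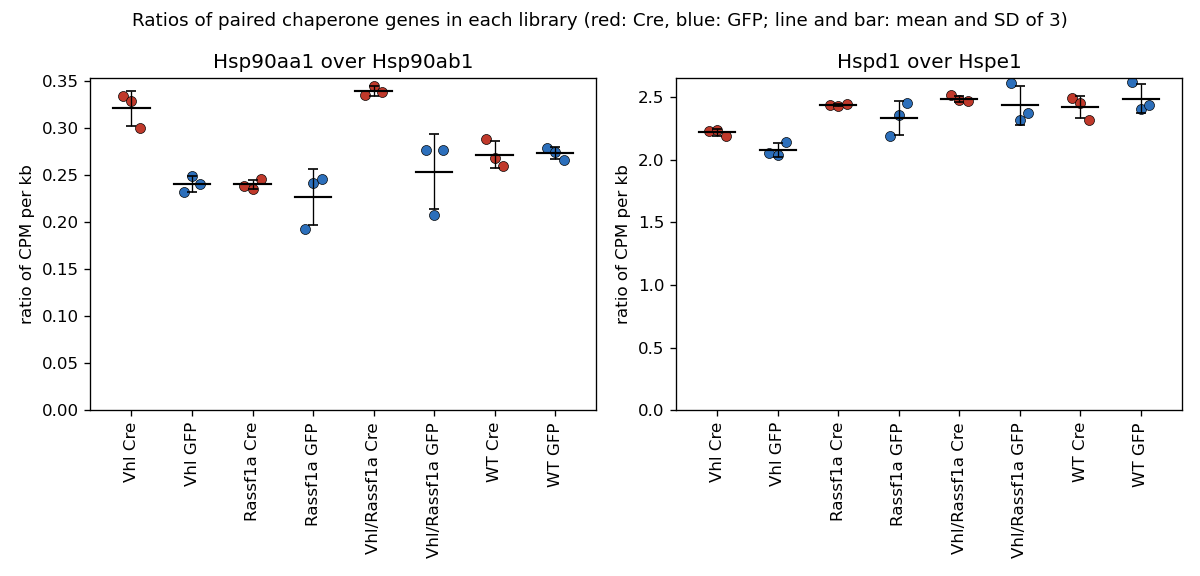
Ratio of CPM per kb of Hsp90aa1 to Hsp90ab1 (left) and of Hspd1 to Hspe1 (right) in each of the 24 libraries; red points are Cre, blue points GFP, and lines and bars give the mean and SD of 3. The HSP90 ratio averaged 0.321 in Vhl Cre and 0.339 in Vhl/Rassf1a Cre libraries, over 0.240 and 0.253 in their GFP libraries.

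Hsph1 encodes HSP110, a nucleotide exchange factor of HSP70, and lies at chr5:149614287-149636376. It had 138, 132 and 129 CPM in Vhl Cre and 146, 148 and 145 CPM in Vhl GFP libraries, a log2 fold change of -0.14 ± 0.04 (edgeR adjusted p = 0.0105). It had 156, 162 and 159 CPM in Vhl/Rassf1a Cre and 219.8, 213 and 223 CPM in Vhl/Rassf1a GFP libraries, a log2 fold change of -0.46 ± 0.04 (adjusted p = 8.08e-09). Neither pair of groups overlapped. The call in Vhl cells was lost without Vhl Cre replicate 3 (log2 -0.11, adjusted p = 0.0709). The libraries of Rassf1a and WT cells held 217 to 246 CPM, so the 9 lowest libraries were the 6 of Vhl cells and the 3 of Vhl/Rassf1a Cre.

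Dnajb1 encodes HSP40, the J protein that brings unfolded clients to HSP70, and lies at chr8:83608193-83612653. It had 77.1, 78.9 and 79.9 CPM in Vhl Cre and 57.6, 59.2 and 61.9 CPM in Vhl GFP libraries, a log2 fold change of 0.40 ± 0.06 (edgeR adjusted p = 1.14e-05). It had 84.8, 80.1 and 82.7 CPM in Vhl/Rassf1a Cre and 67.6, 75.6 and 65.2 CPM in Vhl/Rassf1a GFP libraries, a log2 fold change of 0.25 ± 0.06 (adjusted p = 0.00258). The 6 Cre libraries of these 2 genotypes were the highest of all 24, and no group of either pair overlapped. Hsph1 and Dnajb1, which both serve the HSP70 cycle, thus changed in opposite directions in both genotypes.

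Hspd1 and Hspe1 encode the mitochondrial chaperonins HSP60 and HSP10, and are arranged head to head at chr1:55077835-55088243 (minus strand) and chr1:55088132-55091307 (plus strand). Their annotated ends overlap and the strand setting of the counting is not given, so whether reads from the overlap were told apart is not known. Hspd1 had 317, 301 and 298 CPM in Vhl Cre and 358, 344 and 359 CPM in Vhl GFP libraries, a log2 fold change of -0.21 ± 0.06 (edgeR adjusted p = 0.0104). It had 351, 365 and 343 CPM in Vhl/Rassf1a Cre and 497, 423 and 504 CPM in Vhl/Rassf1a GFP libraries, a log2 fold change of -0.43 ± 0.06 (adjusted p = 1.47e-05). No Cre library reached a GFP library in either genotype. Hspe1 had 79.2, 75.0 and 76.0 CPM in Vhl Cre and 97.2, 94.3 and 93.6 CPM in Vhl GFP libraries (log2 -0.31 ± 0.05, adjusted p = 4.01e-05). It had 77.9, 82.2 and 77.5 CPM in Vhl/Rassf1a Cre and 106, 102 and 119 CPM in Vhl/Rassf1a GFP libraries (log2 -0.46 ± 0.05, adjusted p = 2.88e-07). Here too the groups were apart, and both calls of both genes held in every alternative. The ratio of Hspd1 to Hspe1, per length, was 2.22 ± 0.0287 in Vhl Cre and 2.08 ± 0.0539 in Vhl GFP libraries without overlap (exact permutation p = 0.1, the smallest possible). It was 2.49 ± 0.0243 in Vhl/Rassf1a Cre and 2.43 ± 0.156 in Vhl/Rassf1a GFP libraries, which overlapped (exact p = 0.5).

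Hspb1 encodes a small heat shock protein, HSP25 in mouse, which also binds to the actin cytoskeleton, and lies at chr5:135887919-135889563. It had 149, 175 and 172 CPM in Vhl Cre and 116, 131 and 128 CPM in Vhl GFP libraries, a log2 fold change of 0.41 ± 0.13 (edgeR adjusted p = 0.0157) with no overlap. That call was lost without any 1 of Vhl GFP replicate 1, Vhl Cre replicate 2 and Vhl Cre replicate 3 (adjusted p 0.0545 to 0.0734). It had 166, 163 and 163 CPM in Vhl/Rassf1a Cre and 135, 202 and 131 CPM in Vhl/Rassf1a GFP libraries, a log2 fold change of 0.07 ± 0.13 (adjusted p = 0.721, 95% interval -0.19 to 0.34). Only Vhl/Rassf1a GFP replicate 2 exceeded the Cre libraries, and without it the log2 fold change was 0.31 (adjusted p = 0.0241). Of the 50-base stretches of Hspb1, 48.8% occur in other genes, chiefly the pseudogene Hsp25-ps1, whose counts were at most 0.931% of those of Hspb1. Hspb1 is also expressed in muscle. The muscle markers given above rose with Cre in both Vhl and Vhl/Rassf1a cells, while Hspb1 was called only in Vhl cells with all libraries. A link between them was not tested.

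Whether the Cre effect depended on genotype was tested as the difference of log2 fold changes, which share the WT libraries where WT is subtracted. Against WT the Cre effect in Vhl cells was higher for Dnajb1 by 0.43 ± 0.08 (edgeR adjusted p = 0.000528), for Hsp90aa1 by 0.36 ± 0.09 (0.00663), for Hspb1 by 0.53 ± 0.18 (0.0387) and for Hspa8 by 0.16 ± 0.06 (0.0498), and lower for Hspe1 with -0.32 ± 0.07 (0.00184). These 5 of 10 stand beside 23.2% of all genes, 10.7% as higher and 12.5% as lower. Against WT the effect in Vhl/Rassf1a cells was lower for Hspe1 with -0.47 ± 0.07 (adjusted p = 6.19e-05), for Hsph1 with -0.44 ± 0.06 (7.04e-06), for Hspd1 with -0.40 ± 0.09 (0.0031) and for Hsp90ab1 with -0.19 ± 0.06 (0.0416), and higher for Dnajb1 with 0.28 ± 0.08 (0.0272), 5 of 10 beside 14.8% of all genes, 7.41% as higher and 7.40% as lower. Against Rassf1a cells the same 5 genes passed, at -0.42 for Hspe1, -0.46 for Hsph1, -0.45 for Hspd1, -0.20 for Hsp90ab1 and 0.32 for Dnajb1, beside 15.0% of all genes, 7.95% as higher and 7.10% as lower. Between Rassf1a and WT cells 0 of 10 passed (0.00603% of all genes), with 0 at an unadjusted p under 0.05 and 0 by DESeq2.

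Between the 2 genotypes with altered Vhl, 1 of 10 members differed in its Cre effect, beside 6.09% of all genes, 3.44% as higher and 2.65% as lower. Hsph1 fell more in Vhl/Rassf1a than in Vhl cells, by a difference of -0.32 ± 0.06 on the log2 scale (edgeR adjusted p = 0.00102), in every alternative tried. The 2 lines differed in their GFP level, with a mean of 146 CPM in Vhl GFP and 219 CPM in Vhl/Rassf1a GFP libraries. The Cre means were 133 CPM in Vhl and 159 CPM in Vhl/Rassf1a cells, so Hsph1 stayed lower in Vhl Cre. The part of the GFP levels in this difference was not tested. For Hspd1 the difference was -0.22 ± 0.09 (adjusted p = 0.189), and -0.29 (0.0232) without Vhl/Rassf1a GFP replicate 2. For Hspa8 it was -0.18 ± 0.06 (adjusted p = 0.0656), and -0.23 to -0.20 (0.0269 to 0.0499) without any 1 of Vhl/Rassf1a Cre replicate 3, Vhl Cre replicate 1 and Vhl GFP replicate 3. For Hspe1 it was -0.15 (adjusted p = 0.276), with a 95% interval of -0.30 to -0.00 before adjustment. The intervals were -0.25 to 0.01 for Hsp90ab1, -0.33 to 0.02 for Dnajb1 and -0.30 to 0.08 for Hsp90aa1, and wider for Hspa1a (-0.39 to 0.45), Hspb1 (-0.71 to 0.04) and Hspa1b (-0.25 to 0.65).

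Of these differences against WT or Rassf1a cells, 6 lost their call when 1 library was left out. The Hspa8 difference between Vhl and WT cells was lost without any 1 of 9 of the 12 libraries compared (adjusted p 0.0513 to 0.140), kept only without WT Cre replicate 2, Vhl GFP replicate 3 or Vhl Cre replicate 1. The Hspb1 difference was lost without any 1 of 8 (0.0550 to 0.108), kept without WT GFP replicate 2, WT Cre replicate 2, Vhl GFP replicate 2 or Vhl Cre replicate 1. The Hsp90ab1 difference between Vhl/Rassf1a and WT cells was lost without any 1 of 9 (0.0507 to 0.118), kept without WT Cre replicate 3 or Vhl/Rassf1a GFP replicate 1 or 3. The Dnajb1 difference was lost without any 1 of 7 (0.0606 to 0.0969), kept without WT GFP replicate 1 or 2, WT Cre replicate 2, Vhl/Rassf1a GFP replicate 2 or Vhl/Rassf1a Cre replicate 2. Against Rassf1a cells Hsp90ab1 was lost without any 1 of 7 (0.0542 to 0.0829), kept without Rassf1a GFP replicate 1, Rassf1a Cre replicate 3, Vhl/Rassf1a GFP replicate 1 or 3 or Vhl/Rassf1a Cre replicate 3, and Dnajb1 without Rassf1a GFP replicate 1 or Vhl/Rassf1a Cre replicate 1 (0.0511 and 0.0536). Without WT GFP replicate 3, where Hspa1b was highest, the Hspa1b difference between Vhl and WT cells was -0.71 (adjusted p = 0.0101), against -0.49 (0.121) with all libraries. Without Vhl/Rassf1a GFP replicate 2 the Hspb1 difference between Vhl/Rassf1a and WT cells was 0.43 (0.0288), against 0.19 (0.558) with all libraries. The count of 5 between Vhl and WT cells was 3 without any 1 of WT GFP replicate 1, WT Cre replicates 1 and 3, Vhl GFP replicate 1 and Vhl Cre replicates 2 and 3. Between Vhl/Rassf1a and WT cells it was 3 without any 1 of WT GFP replicate 3, WT Cre replicate 1 and Vhl/Rassf1a Cre replicates 1 and 3, and against Rassf1a cells 3 without Vhl/Rassf1a Cre replicate 1.

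The GFP libraries of the 4 lines showed how far the members differed between the lines where Cre was not given. In Vhl GFP against WT GFP libraries 8 of 10 members were lower and none higher (32.1% of all genes passed, 17.2% as higher and 14.9% as lower), and 9 of 10 did not overlap (48.5% of all genes). Hspa8 had 1293, 1253 and 1359 CPM in Vhl GFP and 2211, 2138 and 2190.3 CPM in WT GFP libraries, a log2 fold change of -0.74 ± 0.04 (edgeR adjusted p = 2.59e-12). Hsph1 had 146, 148 and 145 CPM in Vhl GFP and 226, 226 and 225 CPM in WT GFP libraries (log2 -0.62 ± 0.04, adjusted p = 4.96e-11). Hspd1 had 358, 344 and 359 CPM in Vhl GFP and 548, 525 and 498 CPM in WT GFP libraries (log2 -0.57 ± 0.06, adjusted p = 2.99e-07). These 3 genes were therefore lower in all Vhl GFP libraries than in any WT GFP library. The log2 fold changes of the others called were -0.66 for Hspa1b, -0.40 for Hsp90aa1, -0.31 for Hspe1, -0.21 for Hsp90ab1 and -0.16 for Dnajb1, while Hspa1a (-0.33, adjusted p = 0.0822) and Hspb1 (-0.16, 0.378) did not pass. The Dnajb1 call was lost without any 1 of WT GFP replicates 1, 2 and 3 and Vhl GFP replicates 1 and 2 (adjusted p 0.0543 to 0.168).

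In Rassf1a GFP against WT GFP libraries 1 of 10 members was called (16.1% of all genes, 9.39% as higher and 6.68% as lower), Hsp90aa1 with 740.3, 864 and 871 CPM in Rassf1a GFP and 988, 935 and 926 CPM in WT GFP libraries (log2 -0.20 ± 0.07, edgeR adjusted p = 0.039). That call was lost without Rassf1a GFP replicate 1 (log2 -0.14, the smallest in size) and without any 1 of the 3 WT GFP libraries, at adjusted p of 0.0572 to 0.175. The call held where both libraries that stood apart were left out at once. Without Rassf1a GFP replicate 1 Hspb1 was lower in Rassf1a GFP, with -0.49 (adjusted p = 0.0104) against -0.33 (0.0859) with all libraries. In Vhl/Rassf1a GFP against WT GFP libraries 0 of 10 were called (11.5% of all genes, 6.86% as higher and 4.68% as lower), with 2 at an unadjusted p under 0.05 (Hspd1 and Hspe1) and 0 by DESeq2. The libraries did not overlap for Hspa8 and Hsp90aa1 in the Rassf1a line (27.8% of all genes) and for Hspa8 and Hsph1 in the Vhl/Rassf1a line (22.8% of all genes), lower than WT GFP in each. Without Vhl/Rassf1a GFP replicate 3 Hspe1 was called against WT GFP (-0.18, adjusted p = 0.0207). Comparisons of GFP libraries share the WT GFP group, and the GFP libraries of a line also serve as its Cre control, so genotype, embryo and culture cannot be told apart in them. Side by side, Hspa8 changed by 0.07 with Cre in Vhl cells and by -0.74 between Vhl GFP and WT GFP libraries. In the same order Hsp90aa1 had 0.30 and -0.40, Dnajb1 0.40 and -0.16, and Hspb1 0.41 and -0.16. Hspd1 had -0.21 and -0.57, Hspa1a -0.40 and -0.33, and Hspa1b -0.60 and -0.66. Hsp90ab1 had -0.12 and -0.21, Hsph1 -0.14 and -0.62, and Hspe1 -0.31 and -0.31. Vhl GFP libraries enter these 2 comparisons with opposite sign, so their spread alone moves the 2 values in opposite directions.

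**Figure D4:**
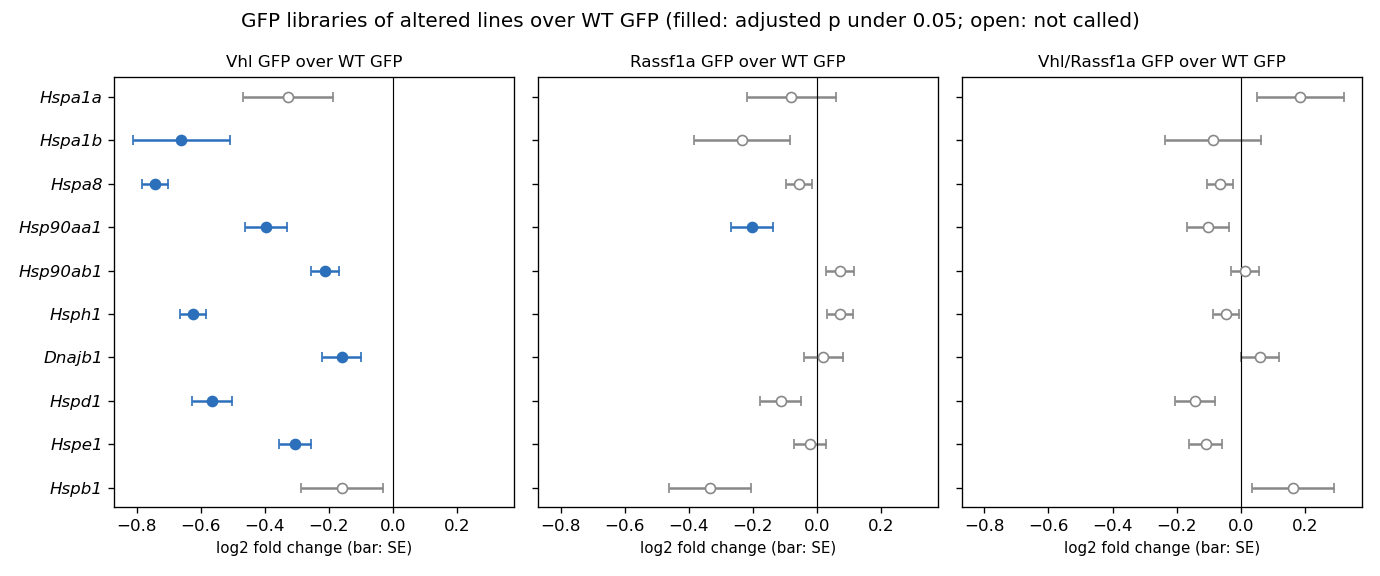
Log2 fold change with its standard error (bars) of each member in GFP libraries of the Vhl, Rassf1a and Vhl/Rassf1a lines over WT GFP libraries; filled points passed the edgeR test at an adjusted p under 0.05. In the Vhl line 8 members are filled, from -0.74 for Hspa8 to -0.16 for Dnajb1, against 1 in the Rassf1a line and 0 in the Vhl/Rassf1a line.

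The 2 libraries that stood apart shared a pattern over the members. Replicate 1 of Rassf1a GFP and replicate 2 of Vhl/Rassf1a GFP both lay above the other 2 libraries of their group in Hspa1a, Hspa1b, Hsp90ab1, Dnajb1 and Hspb1, and below them in Hsp90aa1, Hsph1, Hspd1 and Hspe1. Hspb1 was 133 CPM in the first, against 104 and 94.9 CPM in its group, and 202 CPM in the second, against 135 and 131 CPM. Over the alternatives tried, leaving out these libraries among them, the log2 Cre effect of Hspd1 in Vhl/Rassf1a cells was -0.50 to -0.38. It was -0.27 to -0.19 for Hsp90ab1 and 0.20 to 0.32 for Dnajb1. Without both libraries the Cre effect of Hspb1 in Vhl/Rassf1a cells was 0.31 (edgeR adjusted p = 0.00159), and the difference of Cre effects between Vhl/Rassf1a and Vhl cells was called for Hspd1 (-0.29, 0.000702), Hspe1 (-0.20, 0.0352) and Hsp90aa1 (-0.19, 0.0384) beside Hsph1, 4 members where 1856 genes were called in all, against 1 member and 1010 genes with all libraries.

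Outside the 10 members, the counts of wider chaperone lists called in Cre against GFP libraries are read beside 36.1% of all genes in Vhl cells (17.4% higher, 18.7% lower) and 29.7% in Vhl/Rassf1a cells (14.9% higher, 14.8% lower). Counts without Vhl/Rassf1a GFP replicate 2 and Rassf1a GFP replicate 1, where 34.8% of all genes were called in Vhl/Rassf1a cells, were added after seeing the data. Of 15 HSP90 cochaperones tested, 0 were higher and 2 lower in Vhl Cre than Vhl GFP libraries, and 0 were higher and 5 lower in Vhl/Rassf1a Cre than Vhl/Rassf1a GFP libraries (median log2 fold change -0.01 and -0.09). Without the 2 libraries 0 were higher and 6 lower in Vhl/Rassf1a Cre. Fkbp4, an immunophilin that binds HSP90, had 78.6 ± 4.07 CPM in Vhl Cre and 113 ± 1.13 CPM in Vhl GFP libraries (log2 -0.52, edgeR adjusted p = 2.7e-05), and 94.6 ± 2.86 CPM in Vhl/Rassf1a Cre and 148 ± 21.0 CPM in Vhl/Rassf1a GFP libraries (log2 -0.65, 2.13e-06). Without the 2 libraries its log2 fold change in Vhl/Rassf1a cells was -0.52 (edgeR adjusted p = 9.85e-09), beside 133 and 139 CPM in the GFP libraries left. Its relative Fkbp5 had log2 fold changes of -0.46 in Vhl cells and -0.47 in Vhl/Rassf1a cells. In Vhl/Rassf1a cells Ahsa1, which stimulates the ATPase of HSP90, fell by 0.23 and Stip1, which links HSP70 to HSP90, by 0.20 (by 0.17 and 0.16 without the 2 libraries). Among 12 cochaperones of HSP70, 3 were higher and 0 lower in Vhl Cre and 1 was higher and 0 lower in Vhl/Rassf1a Cre libraries, with Bag2, an inhibitor of the ubiquitin ligase CHIP, at 0.40 and 0.35. Without the 2 libraries 3 of the 12 were higher and 1 lower in Vhl/Rassf1a Cre.

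Of 16 cytosolic J proteins, 4 were higher and 2 lower in Vhl Cre, and 2 were higher and 1 lower in Vhl/Rassf1a Cre libraries (3 higher and 4 lower without the 2 libraries). Dnajc5, a J protein of secretory vesicles, had 198 ± 6.74 CPM in Vhl Cre and 139 ± 1.93 CPM in Vhl GFP libraries (log2 0.51, edgeR adjusted p = 3.48e-10) and was 0.55 higher in Vhl/Rassf1a Cre. Of 8 subunits of the cytosolic chaperonin CCT, which folds actin and tubulin, 1 was higher (Tcp1, 0.14) and 1 lower (Cct2, -0.11) in Vhl Cre, and 0 were higher and 4 lower in Vhl/Rassf1a Cre, led by Cct2 (-0.25) and Cct7 (-0.22), with 5 lower without the 2 libraries. All 8 CCT subunits were lower in Vhl GFP than WT GFP libraries, where 14.9% of all genes were lower, with a median of -0.27 against 0.01 over all genes. Lower genes were not confined to CCT there. Of 16 known HSF1 target genes outside the members 1 was higher and 8 lower, and of 15 HSP90 cochaperones 0 and 5. For the 16 J proteins these counts were 0 and 5, and for 16 chaperones of the endoplasmic reticulum 1 and 5. None of 6 prefoldin subunits, which pass clients to CCT, was called in either Cre comparison.

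Of 15 other mitochondrial chaperones and proteases, 4 were higher and 2 lower in Vhl Cre, and 1 was higher and 3 lower in Vhl/Rassf1a Cre libraries (3 higher and 3 lower without the 2 libraries). The protease gene Lonp1 had 157 ± 8.96 CPM in Vhl Cre and 96.4 ± 4.39 CPM in Vhl GFP libraries (log2 0.71, edgeR adjusted p = 1.64e-08), and 156 ± 1.04 CPM in Vhl/Rassf1a Cre and 94.2 ± 7.55 CPM in Vhl/Rassf1a GFP libraries (log2 0.73, 1.91e-08), opposite to Hspd1 and Hspe1. Hspa9, the mitochondrial HSP70, was -0.22 and Trap1, the mitochondrial HSP90, -0.21 in Vhl/Rassf1a cells (-0.25 and -0.13 without the 2 libraries). The protease gene Htra2 was the 1 gene of all the lists called in Rassf1a and WT cells, with 41.8 ± 1.26 CPM in Rassf1a Cre and 83.8 ± 10.2 CPM in Rassf1a GFP libraries, and 44.2 ± 2.98 CPM in WT Cre and 88.0 ± 1.64 CPM in WT GFP libraries. Without the 2 libraries its log2 fold change was -0.90 in Rassf1a cells (edgeR adjusted p = 8.46e-10) and -0.48 in Vhl/Rassf1a cells (1.8e-06). Its log2 fold change was -0.66 in Vhl/Rassf1a cells and -0.05 in Vhl cells, where it was not called. Of 16 chaperones of the endoplasmic reticulum, 3 were higher and 4 lower in Vhl Cre, and 2 were higher and 7 lower in Vhl/Rassf1a Cre libraries (2 higher and 10 lower without the 2 libraries). P4hb, a protein disulfide isomerase that is also a subunit of collagen prolyl hydroxylase, was 0.40 and 0.45 higher, while Pdia6 was -0.18 and -0.22.

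Among 6 other small heat shock proteins tested, Cryab, alpha B-crystallin, had 178 ± 9.99 CPM in Vhl Cre and 133 ± 4.58 CPM in Vhl GFP libraries (log2 0.42, edgeR adjusted p = 0.000194), and Hspb6 was -0.37 in Vhl cells and -0.33 in Vhl/Rassf1a cells, where Hspb7 was -0.57. Cryab was called in Vhl/Rassf1a cells without the 2 libraries (log2 0.26, edgeR adjusted p = 0.000974). Hspb6 was -0.23 and Hspb7 -0.51 in that fit. Hspb6, Hspb7 and Cryab are also known from muscle. Of 7 other HSP70 and HSP110 genes, Hspa4l (0.23) and Hspa2 (0.22) were higher and Hspa12a (-0.28) lower in Vhl Cre, and Hspa2 (0.50) was higher in Vhl/Rassf1a Cre. Without the 2 libraries Hspa2 was 0.57 in Vhl/Rassf1a cells, and Hspa4 was called lower, at -0.19 (edgeR adjusted p = 0.000255). Hsf1 had 50.2 ± 2.54 CPM in Vhl Cre and 52.9 ± 1.38 CPM in Vhl GFP libraries (log2 -0.07, adjusted p = 0.541), and 47.4 ± 2.18 CPM in Vhl/Rassf1a Cre and 58.3 ± 5.64 CPM in Vhl/Rassf1a GFP libraries (log2 -0.30, 0.00903), or -0.21 (0.0122) without the 2 libraries. Hsf2 was not called in these comparisons (-0.04 and -0.01), and Hsbp1, a binding protein of HSF1, was 0.13 and 0.20 higher. Of 16 known HSF1 target genes outside the members, a list that shares Fkbp4, Ahsa1, Stip1, Cryab, Hspa4l, Tcp1 and others with those above, 3 were higher and 2 lower in Vhl Cre, and 0 were higher and 4 lower in Vhl/Rassf1a Cre libraries, with the collagen chaperone Serpinh1 at -0.37 and -0.36. Without the 2 libraries 2 of these 16 were higher and 8 lower in Vhl/Rassf1a Cre. The shares in Vhl cells, 5 of 16 here, 6 of 16 J proteins, 6 of 15 mitochondrial and 7 of 16 endoplasmic reticulum genes, stand beside 36.1% of all genes, and nothing is read from them about these lists.

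**Figure D5:**
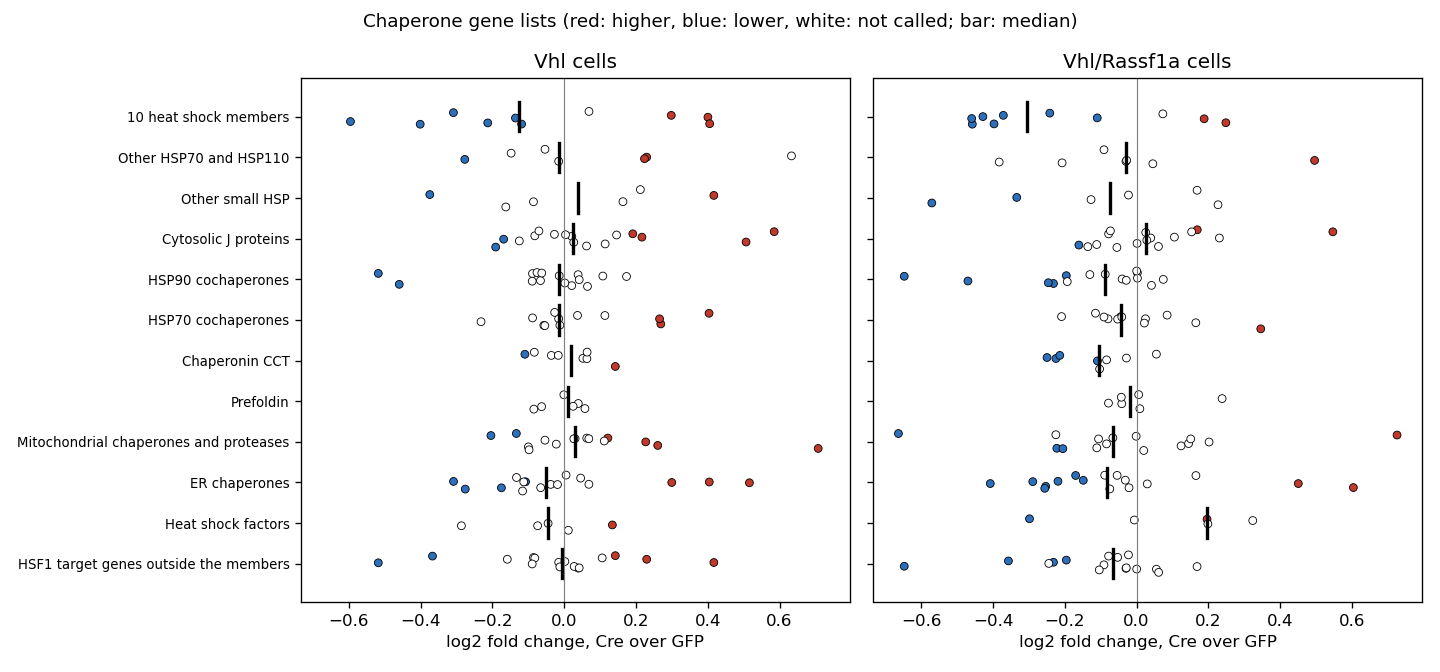
Log2 fold change of Cre over GFP for the 10 members (top row) and the tested genes of 11 wider chaperone lists in Vhl cells (left) and Vhl/Rassf1a cells (right); red points are higher, blue lower and white not called by edgeR, and black bars mark medians. The median of the members is -0.13 on the left and -0.31 on the right, and the wider lists have medians between -0.11 and 0.20.

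Over the 24 libraries the levels of Hspa1a, Hspa1b, Hspa8, Hsp90ab1, Hsph1, Hspd1 and Hspe1 formed a correlated set. Dnajb1 and Hspb1 formed a separate pair, and Hsp90aa1 was less correlated with either. This is a description, since points share groups and libraries. On the scale of log2 of CPM plus 1, Hsph1 and Hspd1 had a Pearson r of 0.96, Hspd1 and Hspe1 0.95 and Hsp90ab1 and Hsph1 0.92, while Dnajb1 and Hspb1 had 0.77. Hsp90aa1 and Hsp90ab1 had -0.09 and Dnajb1 and Hspe1 -0.70. In the 22 libraries without the 2 that stood apart these r were 0.98, 0.95, 0.96, 0.78, 0.12 and -0.74 in the same order, so that of Hsp90aa1 and Hsp90ab1 turned positive. The highest r of Hsp90aa1 to another member was 0.48, with Hspa8, and that r was 0.63 in the 22 libraries. With Dnajb1 Hsp90aa1 had 0.47, and 0.62 in the 22 libraries. The lowest r within the correlated set, that of Hspa8 and Hspe1, was 0.65 in the 24 and in the 22 libraries, so Hsp90aa1 stood less apart in the 22. Among all genes tested, the highest r to Hsp90ab1 was that of Fkbp4 (0.97), to Hspd1 Dkc1 (0.99), to Hspe1 Oxct1 (0.97), to Hspa8 Rps3a1 (0.98), to Hsph1 Tcf20 (0.97), to Dnajb1 Shb (0.96), to Hspb1 Rasa4 (0.96), to Hsp90aa1 Filip1l (0.94), to Hspa1b Selenoh (0.94) and to Hspa1a Spdl1 (0.88), each 0.89 to 0.99 in the 22 libraries. Over deviations from the group means, Hsp90aa1 and Hsp90ab1 had an r of -0.56 in 24 libraries and 0.31 in the 22 libraries without the 2 that stood apart, so the sign rested on those libraries. Dnajb1 and Hspb1 had 0.89 and 0.76 on the same measure.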

How the data were processed

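RNA was isolated with the NucleoSpin RNA kit and libraries came from a TruSeq Stranded kit, as the labels' protocols state. The submitters' processing notes list Trimmomatic 0.38, STAR 2.5.2b and the build GRCm38. Raw read counts per Ensembl gene ID, whole numbers without normalization, are what the authors deposited. How reads were assigned to genes, with which strand setting and annotation, is not given in the sources used here. A name table gave a symbol to 45143 of 45706 IDs, and positions came from a GENCODE annotation of GRCm38. Groups followed the sample titles. The replicates of a group differed beyond sampling noise (chi-square of at least 2.74 per degree of freedom).

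A quasi-likelihood model in edgeR 4.0.16 (R 4.3.3, TMM factors, 1 mean per group, 16 residual degrees of freedom) used all 24 libraries and the 16573 genes that filterByExpr kept (count minimum 10, total minimum 15). The variation between libraries of a group beyond counting noise had a common coefficient of 7.73%. Reported p-values are two-sided and adjusted by Benjamini-Hochberg over the 16573 genes of each of 12 comparisons (4 of Cre with GFP, 5 differences of these effects, 3 of GFP libraries) and 1 joint test, with 0.05 as the threshold. A standard error (SE) is the log2 fold change over the root of its F statistic. Shared sequence was counted in stretches of 50 bases of annotated transcripts. Ratios were tested by exact permutation with SciPy 1.17.1. Named genes were the members, Vhl, Rassf1, Hsf1, Hsf2, up to 4 genes per list and comparison with the smallest adjusted p, and the genes most correlated with each member. The members and lists were chosen with earlier results of these data known. Alternatives were the DESeq2 1.42.0 size factors and test, no filter, only the groups compared, a replicate block, GC-corrected offsets, library scaling by other factors, the sum of Hspa1a and Hspa1b, and leaving out libraries. Adding the counts of pseudogenes, and the wider lists and level correlations without the 2 outlying libraries, were alternatives chosen after seeing the data.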

Additional observations from a re-analysis of the deposited data

Results flagged for a closer look

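The Cre effect of several members differed between genotypes by a test of the difference itself (edgeR quasi-likelihood, adjusted p under 0.05, log2 scale). Between Vhl and WT cells the differences were 0.43 for Dnajb1, 0.36 for Hsp90aa1, 0.53 for Hspb1, 0.16 for Hspa8 and -0.32 for Hspe1. Between Vhl/Rassf1a and WT cells they were -0.47 for Hspe1, -0.44 for Hsph1, -0.40 for Hspd1, -0.19 for Hsp90ab1 and 0.28 for Dnajb1. Between Vhl/Rassf1a and Rassf1a cells they were -0.42 for Hspe1, -0.46 for Hsph1, -0.45 for Hspd1, -0.20 for Hsp90ab1 and 0.32 for Dnajb1. Between Vhl/Rassf1a and Vhl cells the difference was -0.32 for Hsph1, which fell by 0.46 with Cre in Vhl/Rassf1a cells and by 0.14 in Vhl cells. Its mean was 219 CPM in Vhl/Rassf1a GFP and 146 CPM in Vhl GFP libraries, and 159 and 133 CPM in their Cre libraries. Some of these calls were lost with certain single libraries left out, as given above. They were those of Hspa8 and Hspb1 between Vhl and WT cells, and of Hsp90ab1 and Dnajb1 between Vhl/Rassf1a and WT or Rassf1a cells. What lies behind the differences was not tested.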

How the results depend on the processing

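Of 43 calls for single members over the 12 comparisons, 27 held in every alternative and 16 were lost in at least 1, and none reversed. With 1 library left out in turn, the number of members called was 5 to 8 in Vhl cells and 5 to 7 in Vhl/Rassf1a cells (9 with all libraries in both), and 0 in Rassf1a and WT cells. For the differences of Cre effects it was 3 to 5 between Vhl and WT (5 with all libraries), 3 to 5 between Vhl/Rassf1a and WT (5), 1 to 2 between Vhl/Rassf1a and Vhl (1) and 3 to 6 between Vhl/Rassf1a and Rassf1a (5). For GFP libraries against WT GFP it was 7 to 8 for Vhl (8), 0 to 1 for Rassf1a (1) and 0 to 1 for Vhl/Rassf1a (0). Between Vhl/Rassf1a and Vhl the count was 2 with the DESeq2 test, 2 with no filter, 4 with GC-corrected offsets and 4 without both outlying libraries, where 1251, 1010, 2198 and 1856 genes were called in all (1010 in the reported fit). Between Vhl/Rassf1a and Rassf1a it was 3 with only the groups compared (1675 genes in all, against 2493). For Rassf1a GFP against WT GFP it was 2 with the DESeq2 test, 3 with no filter, 0 with only the groups compared, 3 with GC-corrected offsets and 3 without both outlying libraries, where 2753, 2841, 1466, 3964 and 3403 genes were called in all (2664 in the reported fit). For Vhl/Rassf1a GFP against WT GFP it was 1 with GC-corrected offsets (3048 genes in all, against 1913). With the replicate block 9 members were called in Vhl and 6 in Vhl/Rassf1a cells, 7 for Vhl GFP and 0 for Rassf1a GFP against WT GFP. The numbers were not taken as pairs, since same-numbered Cre and GFP libraries had correlations of deviations between -0.23 and 0.11, over 0.1 in 2 of 12 pairs, and 3 of 12 Cre libraries correlated best with the GFP library of their number. The joint test called 10 of 10 members with any 1 library left out, and a fit of only the groups compared gives no value for it. Adding pseudogene counts, chosen after seeing the data, lost the call of Hspa8 between Vhl and WT cells. The cause of these shifts was not tested. Hspa1a, with 49 to 165 counts per library, is the member whose depth limits its precision most.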
